A study of Homo sapiens with 18 samples.

Results

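INHBA, INHBB, INHA, FST, FSTL3, ACVR1B, ACVR2A and ACVR2B encode activin and inhibin subunits, the follistatins that bind activin, and activin receptors. All 8 genes were found by symbol among the 19849 genes of the array table, with 1 probe set each. They were measured in parental and TGFβ-induced mesenchymal cells of the human non-small cell lung cancer lines A549, HCC827 and NCI-H358 on Affymetrix U133 Plus 2.0 arrays. Each of the 6 groups had 3 arrays, 18 in all. All groups were grown in RPMI1640 with serum and glutamine. The mesenchymal cells, labelled EMT for epithelial-mesenchymal transition, had in addition been kept with 2 ng/ml TGFβ for 3 weeks, and the cytokine was withdrawn the day before lysis. Each line is 1 model, and the 3 arrays of a group came from separate samples made at the same time, so the spread between them does not cover repeats of the TGFβ culture. TGFβ exposure and the mesenchymal state cannot be told apart in this design.

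Activins are secreted dimers of β subunits. INHBA encodes the βA subunit, whose dimer is activin A, and INHBB encodes the βB subunit. INHA encodes the α subunit, which pairs with a β subunit to form inhibin, an antagonist of activin. Activins bind the type II receptors ACVR2A and ACVR2B, which recruit the type I receptor ACVR1B (ALK4), and the signal passes to SMAD2 and SMAD3, the same mediators that TGFβ uses. FST (follistatin) and FSTL3 are secreted proteins that bind activin and keep it from its receptors.

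Expression values were RMA-normalized log2 levels, in which 1 unit is a 2-fold difference. Array medians lay between 6.31 and 6.47, and log2 differences of all genes had a standard deviation of 0.163 to 0.282 between arrays of a group and 0.719 to 0.896 between parental and mesenchymal arrays of a line. CDH1, EPCAM, KRT8, KRT18 and KRT19, epithelial genes, were lower on every mesenchymal array than on every parental array of the same line, and CDH2, VIM, ZEB1, SNAI1 and FN1, mesenchymal genes, were higher. KRT8 and KRT18 stayed at or above percentile 94.6 of the genes of an array in all 6 groups, and VIM, read by 1 probe set, did not exceed percentile 50.6. Of 5 genes of leukocytes, endothelium and red cells, PTPRC lay at percentiles 3.29 to 6.38, CDH5 at 15.7 to 19.9, PECAM1 at 25.2 to 34.1, CD3E at 35.7 to 38.9 and HBB at 45.5 to 50.5, and PECAM1 and CDH5 each separated parental from mesenchymal arrays in 1 line. In bulk cultures, fewer cells that express a gene and less RNA per cell cannot be told apart. The table holds no detection calls, so a low percentile is given here as the only sign of a dim probe set. A single limma fit of the 18 arrays gave the mesenchymal minus parental difference of every line, and a gene is said to rise or fall where its Benjamini-Hochberg adjusted p over all 19849 genes was below 0.05. Groups of 3 leave the exact permutation test with a smallest two-sided p of 0.1, so none is given for single genes.

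The activin βA gene was far higher in the mesenchymal cells, and most of its partners did not follow it. INHBB, the other β subunit gene, fell in all 3 lines. FSTL3 rose in all 3 lines, whereas FST fell in A549 and HCC827 and rose slightly in NCI-H358. INHA stayed near the low end of the scale, and the receptor genes changed by at most 2.34-fold, the fall of ACVR1B in HCC827. Of the 7 partners of INHBA, 4 passed in A549, where 43.4% of all genes passed, 5 in HCC827, where 45.8% passed, and 5 in NCI-H358, where 41.4% passed. With shares of this size the count of partners is not a result about them, and the sizes and directions below carry the description. The paper names a stricter cutoff, which asks for limma adjusted p values below 1e-05 and changes of more than 5-fold. The paper used it for metabolism-associated genes that changed in all 3 lines. Here the cutoff was applied to each line apart, and no partner passed it in all 3. INHBB alone passed it, in A549 (where 1.9% of all genes did) and NCI-H358 (2.17%). In HCC827, where 2.95% of all genes passed it, 0 partners did, while 5 had an unadjusted limma p below 0.05 and 5 by the methods' t-test.

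**Figure D1:**
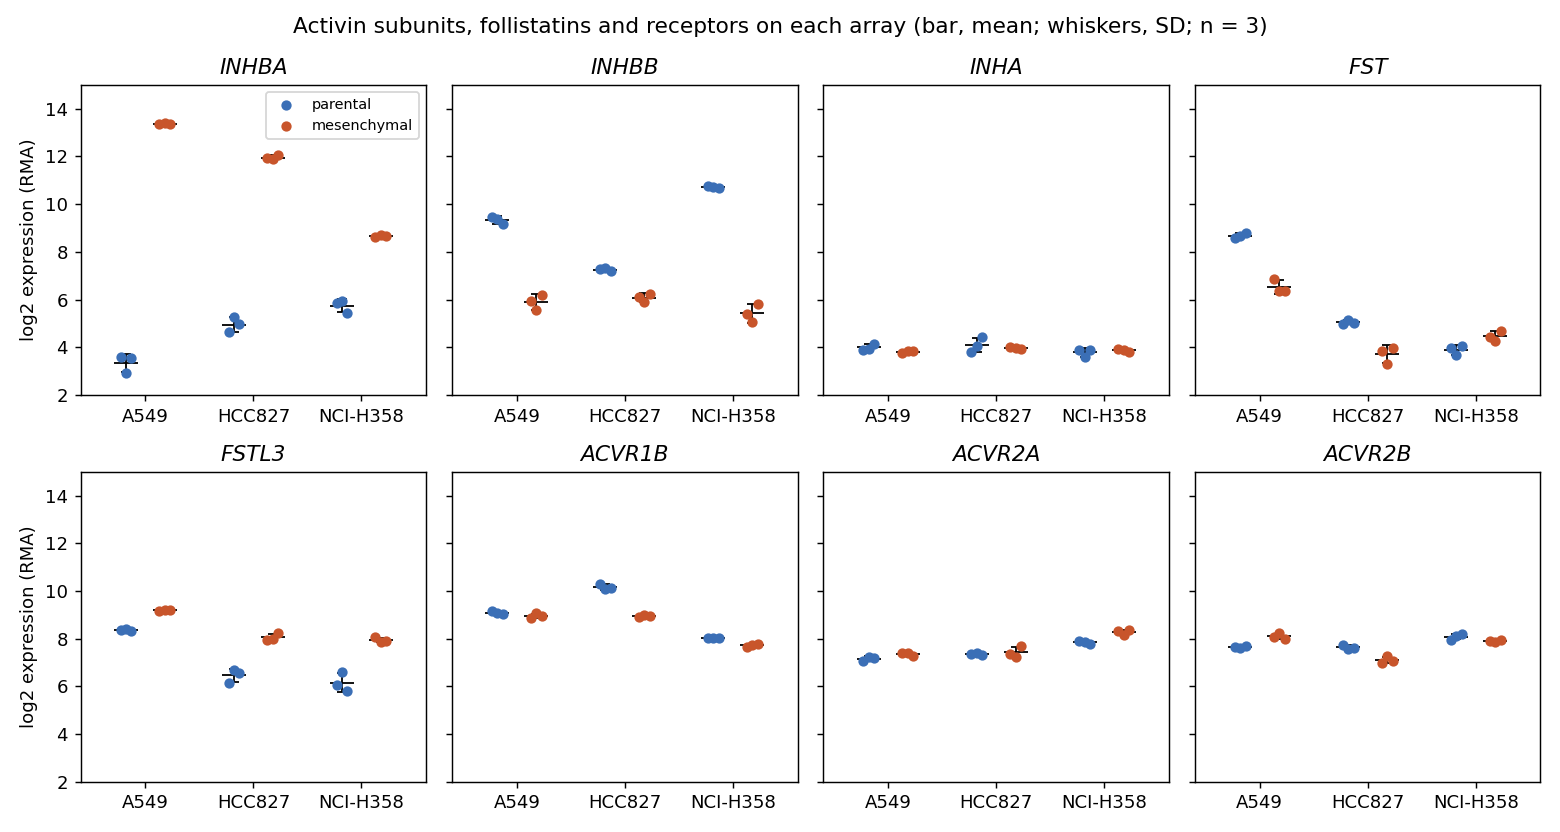
Log2 expression (y axis) of the 8 genes on each of the 18 arrays, by cell line (x axis), with parental cells in blue and mesenchymal cells in orange. Points are single arrays, bars are group means and whiskers are SD (n = 3). INHBA is higher and INHBB lower in the mesenchymal cells of every line, and INHA lies between 3.57 and 4.42 on all arrays.

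The genes were chosen by family around INHBA, which was itself selected on its mean log2 change over the 3 lines, 6.65, the highest of all 19849 genes. The next gene, HS3ST3B1, had 6.39. The INHBA values are therefore given without a test. In A549 the parental arrays read 3.58, 2.92 and 3.53 and the mesenchymal arrays 13.37, 13.39 and 13.34. The group means were 3.35 ± 0.37 (SD, n = 3) and 13.37 ± 0.03 (SD, n = 3), a log2 change of 10.02 or 1040-fold. The 2 groups were 9.76 apart at their nearest arrays. In HCC827 the parental arrays read 4.62, 5.25 and 4.96 and the mesenchymal arrays 11.92, 11.88 and 12.07, a log2 change of 7.01 or 129-fold. In NCI-H358 the parental arrays read 5.84, 5.93 and 5.43 and the mesenchymal arrays 8.61, 8.70 and 8.68, a log2 change of 2.93 or 7.60-fold. The line with the lowest parental level, A549, had the highest mesenchymal level, and the line with the highest parental level, NCI-H358, had the lowest. No neighbouring groups overlapped in the order A549, HCC827 and NCI-H358 mesenchymal, then NCI-H358, HCC827 and A549 parental. INHBA went from percentile 8.87 of the array to percentile 99.6 in A549 cells, from 29.2 to 98.1 in HCC827 cells and from 40.3 to 77.1 in NCI-H358 cells. The change was the highest of all genes in A549, the 4th highest in HCC827 and the 83rd highest in NCI-H358. The parental A549 mean lay below the lowest 10th percentile of any array, 3.40, so the fold in A549 depends on the background signal that RMA leaves in dim probe sets. Parental INHBA in HCC827 and NCI-H358, at percentiles 29.2 and 40.3, also lay below HBB, a red cell gene, at 45.5 to 50.5. The folds of these 2 lines and the order of the parental levels may therefore depend on background signal too, which was not tested. When single arrays of a line were omitted, the log2 change stayed between 9.81 and 10.14 for A549, 6.85 and 7.17 for HCC827, and 2.77 and 3.03 for NCI-H358.

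INHBB moved the opposite way in each line. In NCI-H358 it read 10.74, 10.72 and 10.66 on the parental arrays and 5.39, 5.05 and 5.81 on the mesenchymal arrays. This fall of 39.1-fold (log2 fold change -5.29, standard error 0.17, limma adjusted p = 1.47e-13) was the 18th largest fall of all genes in that line. In A549 it read 9.48, 9.36 and 9.15 on the parental and 5.94, 5.54 and 6.18 on the mesenchymal arrays, a fall of 10.9-fold (log2 fold change -3.44, standard error 0.17, limma adjusted p = 3.15e-11). In HCC827 it read 7.27, 7.31 and 7.19 on the parental and 6.10, 5.90 and 6.25 on the mesenchymal arrays, a fall of 2.26-fold (log2 fold change -1.17, standard error 0.17, limma adjusted p = 1.57e-05). The parental and mesenchymal arrays did not overlap in any line. Over all genes, 6.14% fell in all 3 lines at this threshold. The parental means of INHBB spanned 3.45 log2 units between the lines, in the order NCI-H358, A549, HCC827, and the mesenchymal means spanned 0.67. Mesenchymal A549 and HCC827 overlapped and differed by 0.19 (95% interval -0.16 to 0.55, limma adjusted p = 0.353). Mesenchymal NCI-H358 was lower than mesenchymal HCC827 by 1.59-fold (log2 difference -0.67, limma adjusted p = 0.00274). It was also lower than mesenchymal A549 (-0.47, limma adjusted p = 0.0231), with overlapping arrays. The size of the fall followed the order of the parental levels, and the mesenchymal arrays lay between 5.05 and 6.25, at mean percentiles 35.9 to 45.8. CD3E and HBB, genes of leukocytes and red cells, lay at percentiles 35.7 to 38.9 and 45.5 to 50.5. The falls and the differences between mesenchymal lines may therefore depend on background signal, which was not tested.

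INHA, the inhibin α subunit gene, was between 3.57 and 4.42 on all 18 arrays, at mean percentiles 13.3 to 17.8. In A549 it read 3.89, 3.94 and 4.15 on the parental and 3.78, 3.85 and 3.82 on the mesenchymal arrays. The log2 fold change of INHA was -0.18 in A549 (95% interval -0.44 to 0.08, limma adjusted p = 0.272). For HCC827 it was -0.11 (-0.37 to 0.15, adjusted p = 0.52), and for NCI-H358 0.10 (-0.16 to 0.36, adjusted p = 0.601). No line passed. Among parental cells, INHA was lower in NCI-H358 than in HCC827 (-0.31, adjusted p = 0.0426), with overlapping arrays.

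Because INHBA and FSTL3 were higher and INHBB lower in all 3 lines, the stretch around the start of each of these genes is shown, from 250 bases before to 50 bases after the RefSeq start (assembly GRCh38.p14). All 8 genes had an entry in this RefSeq table, ACVR1B with 2 starts. Capitals mark 5 motifs searched on both strands, with overlapping matches counted: CAGAC (the core of SMAD binding elements), TGANTCA (AP-1), TGACGTCA (the cAMP response element), TATAAA (a core promoter element) and GGGCGG (GC box). The INHBA window is chr7:41703041-41703340 on the minus strand, the INHBB window is chr2:120345886-120346185 on the plus strand, and the FSTL3 window is chr19:676142-676441 on the plus strand.
INHBA: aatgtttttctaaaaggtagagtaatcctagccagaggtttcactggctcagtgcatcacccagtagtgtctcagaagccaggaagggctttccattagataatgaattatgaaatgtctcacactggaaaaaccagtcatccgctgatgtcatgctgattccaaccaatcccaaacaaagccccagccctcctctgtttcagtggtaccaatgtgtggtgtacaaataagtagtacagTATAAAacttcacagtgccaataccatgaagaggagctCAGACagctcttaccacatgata
INHBB: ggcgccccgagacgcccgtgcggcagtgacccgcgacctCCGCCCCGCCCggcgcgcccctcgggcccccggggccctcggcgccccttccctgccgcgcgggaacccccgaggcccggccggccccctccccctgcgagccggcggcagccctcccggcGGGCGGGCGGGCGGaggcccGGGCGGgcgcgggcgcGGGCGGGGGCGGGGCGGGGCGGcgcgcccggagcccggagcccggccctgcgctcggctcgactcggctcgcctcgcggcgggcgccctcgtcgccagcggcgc
FSTL3: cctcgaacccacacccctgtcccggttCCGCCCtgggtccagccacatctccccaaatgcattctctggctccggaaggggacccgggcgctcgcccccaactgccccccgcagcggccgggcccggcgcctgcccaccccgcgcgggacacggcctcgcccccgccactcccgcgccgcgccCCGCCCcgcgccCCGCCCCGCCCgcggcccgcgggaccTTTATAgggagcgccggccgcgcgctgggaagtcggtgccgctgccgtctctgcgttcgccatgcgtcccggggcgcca
The 3 windows differ in composition. The INHBA window was 43.3% G and C, the INHBB window 88.7% and the FSTL3 window 78.7%, where the median of 35116 RefSeq windows was 58.7%. The INHBA window held 1 CAGAC and 1 TATAAA and no GGGCGG. The INHBB window held 10 overlapping or separate GGGCGG matches and none of the other motifs. The FSTL3 window held 1 TATAAA and 4 GGGCGG. Neither the AP-1 motif nor TGACGTCA occurred in these 3 windows. Of all windows, 45.3% held CAGAC, 11.5% TATAAA, 45.0% GGGCGG, 7.71% the AP-1 motif and 1.85% TGACGTCA. These matches describe the letters of the windows only.

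The 2 activin-binding proteins, FST and FSTL3, parted in A549 and HCC827. FST was highest in A549, where it read 8.58, 8.66 and 8.80 on the parental and 6.85, 6.37 and 6.37 on the mesenchymal arrays, a fall of 4.44-fold (log2 fold change -2.15, standard error 0.17, limma adjusted p = 1.65e-08). In HCC827 it read 4.98, 5.15 and 5.02 on the parental and 3.86, 3.28 and 3.98 on the mesenchymal arrays, a fall of 2.54-fold (log2 fold change -1.34, limma adjusted p = 3.86e-06). In NCI-H358 it read 3.95, 3.66 and 4.07 on the parental and 4.44, 4.28 and 4.69 on the mesenchymal arrays, a rise of 1.49-fold (log2 fold change 0.57, limma adjusted p = 0.0117). The groups did not overlap in any line, but in NCI-H358 they were only 0.21 apart at their nearest arrays. The levels there were low, at mean percentiles 14.7 and 21.9. The rise in NCI-H358 no longer passed without parental replicate 2 (log2 fold change 0.46, adjusted p = 0.0657) or without mesenchymal replicate 3 (0.46, adjusted p = 0.0641). Mesenchymal A549 cells still held more FST signal than either other line in any state, and they exceeded mesenchymal HCC827 cells by 7.07-fold (log2 difference of HCC827 from A549 -2.82, limma adjusted p = 1.93e-10), a fold taken against a level at percentile 12.9.

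FSTL3 rose in all 3 lines, which 4.31% of all genes did at this threshold. In NCI-H358 it read 6.06, 6.58 and 5.81 on the parental and 8.05, 7.88 and 7.92 on the mesenchymal arrays, a rise of 3.48-fold (log2 fold change 1.80, standard error 0.16, limma adjusted p = 4.72e-08). In HCC827 it read 6.15, 6.68 and 6.56 on the parental and 7.94, 7.99 and 8.23 on the mesenchymal arrays, a rise of 3.01-fold (log2 fold change 1.59, limma adjusted p = 1.78e-07). In A549 it read 8.37, 8.41 and 8.32 on the parental and 9.16, 9.21 and 9.22 on the mesenchymal arrays, a rise of 1.77-fold (log2 fold change 0.83, limma adjusted p = 0.000324). No parental array overlapped a mesenchymal array of its line. The rise was smallest in A549, where parental cells already had the highest level, and the rises in NCI-H358 and HCC827 differed by 0.21 (95% interval -0.26 to 0.68, adjusted p = 0.522). Mesenchymal HCC827 and NCI-H358 overlapped, with a difference of NCI-H358 from HCC827 of -0.11 (95% interval -0.44 to 0.22, adjusted p = 0.624), and parental cells of these lines overlapped as well, with a difference of -0.31 (-0.64 to 0.02, adjusted p = 0.105).

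**Figure D2:**
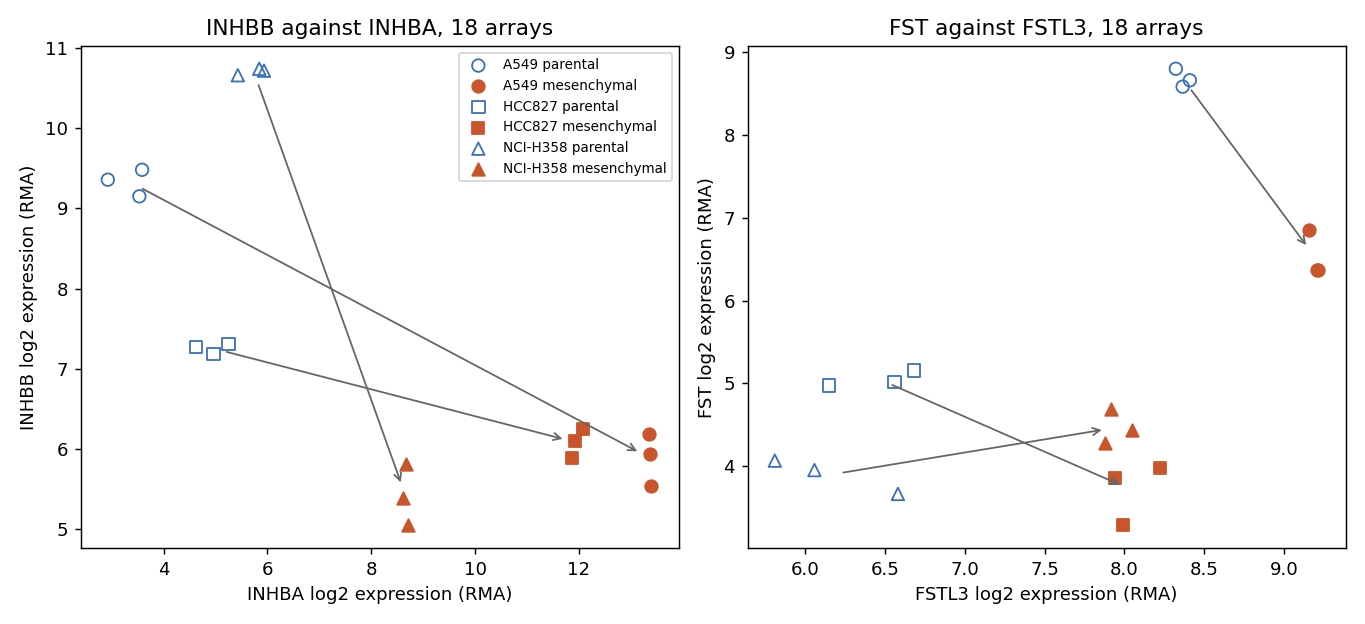
Log2 expression of INHBB against INHBA (left) and of FST against FSTL3 (right) on the 18 arrays, with parental cells as open blue and mesenchymal cells as filled orange symbols, a symbol per cell line, and arrows from the parental to the mesenchymal mean. Arrows on the left run down and to the right in all 3 lines and end between 5.42 and 6.08 for INHBB, and on the right the arrow of NCI-H358 alone runs upward.

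The log2 fold changes of the 3 receptor genes lay between -1.23 and 0.45. ACVR1B, the type I receptor, was highest in parental HCC827 cells. There it read 10.30, 10.09 and 10.11 on the parental and 8.91, 8.99 and 8.93 on the mesenchymal arrays, a fall of 2.34-fold (log2 fold change -1.23, standard error 0.07, limma adjusted p = 1.31e-10), with no overlap. In NCI-H358 it fell by 1.23-fold (log2 fold change -0.29, limma adjusted p = 0.00208), from a mean of 8.01 to 7.72, without overlap. In A549 the groups overlapped and the log2 fold change was -0.14 (95% interval -0.29 to 0.00, adjusted p = 0.107). Mesenchymal HCC827 and A549 cells were then at 8.94 and 8.95, a difference of -0.01 (95% interval -0.15 to 0.14, adjusted p = 0.937).

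The type II receptor ACVR2A rose only in NCI-H358 at this threshold. It read 7.91, 7.84 and 7.76 on the parental and 8.31, 8.14 and 8.35 on the mesenchymal arrays there, a rise of 1.35-fold (log2 fold change 0.43, standard error 0.10, limma adjusted p = 0.00169). The log2 fold change was 0.19 in A549 (95% interval -0.01 to 0.40, adjusted p = 0.127), where the groups were 0.04 apart, and 0.08 in HCC827 (-0.13 to 0.29, adjusted p = 0.575), where they overlapped. None of the 3 differences of the ACVR2A change between lines passed, the nearest being that of NCI-H358 from HCC827 (0.35, 95% interval 0.06 to 0.65, adjusted p = 0.056). ACVR2B, the other type II receptor, rose in A549 and fell in HCC827. In A549 it read 7.63, 7.60 and 7.69 on the parental and 8.06, 8.21 and 8.0005 on the mesenchymal arrays, a rise of 1.37-fold (log2 fold change 0.45, standard error 0.08, limma adjusted p = 0.000231). In HCC827 it read 7.72, 7.56 and 7.61 on the parental and 6.97, 7.25 and 7.08 on the mesenchymal arrays, a fall of 1.44-fold (log2 fold change -0.53, limma adjusted p = 3.37e-05). Neither pair of groups overlapped. In NCI-H358 the log2 fold change was -0.18 (95% interval -0.35 to -0.00, adjusted p = 0.0996) and did not pass, although the groups were 0.02 apart. Without parental replicate 1 of NCI-H358 it passed (-0.24, adjusted p = 0.0393).

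**Figure D3:**
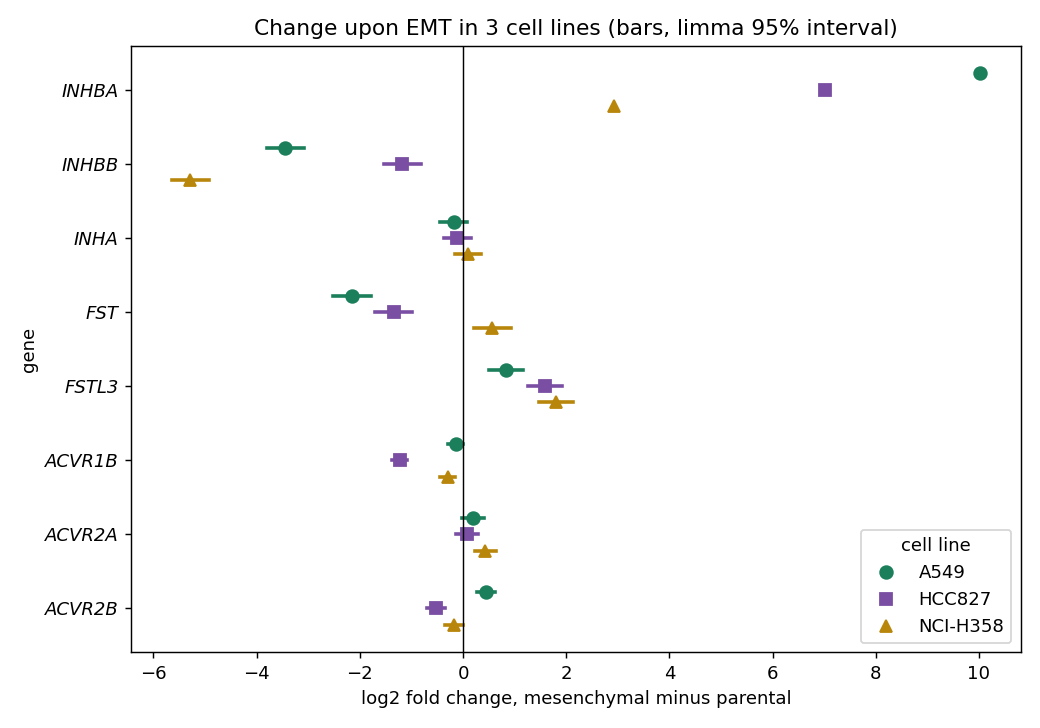
Log2 fold change (x axis, mesenchymal minus parental) of the 8 genes (y axis) in A549, HCC827 and NCI-H358. Symbols are estimates and bars 95% intervals of the limma fit, and INHBA has no interval because it was chosen for this change. INHBA lies at 10.02, 7.01 and 2.93, INHBB at -3.44, -1.17 and -5.29, and the receptor genes between -1.23 and 0.45.

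The change of several partners differed between lines when limma tested that difference in the same fit. Between HCC827 and A549 5 of the 7 partners differed, where 42.2% of all genes did, between NCI-H358 and A549 4 (42.8%), and between NCI-H358 and HCC827 4 (37.9%). The log2 change of INHBB in HCC827 lay 2.27 above that in A549 (limma adjusted p = 6.71e-07), and its change in NCI-H358 lay at -1.85 relative to A549 (adjusted p = 7.36e-06). FST changed in opposite directions in NCI-H358 and A549, with a difference of 2.72 (adjusted p = 8.71e-08). The rise of FSTL3 was 0.97 larger in NCI-H358 than that of A549 (adjusted p = 0.0017). These comparisons share the arrays of the line they have in common. For INHBA the change was 7.10 log2 units larger in A549 than in NCI-H358 and 3.01 larger than in HCC827, values given with no test that depend, like the A549 change itself, on the background signal at the parental level.

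Levels of the partners were also compared between lines, within the parental and within the mesenchymal cells. Between parental cells, 4 of the 7 partners differed for HCC827 and A549 (57.1% of all genes did), 6 for NCI-H358 and A549 (57.9%) and 6 for NCI-H358 and HCC827 (52.6%). Between mesenchymal cells the counts were 3 (56.6%), 5 (58.8%) and 5 (52.6%) for the same pairs. With shares of this size these counts are not a result about the partners, and the values below describe single genes. Parental FST, at percentile 14.7 in NCI-H358 so that the fold depends on background signal, was 27.6-fold lower there than in A549 (log2 difference -4.79, limma adjusted p = 1.26e-13) and 12.4-fold lower in HCC827 than in A549 (-3.63, adjusted p = 6.38e-12). Parental INHBB was 10.9-fold higher in NCI-H358 than in HCC827 (log2 difference 3.45, adjusted p = 1.67e-11). Parental ACVR1B was 4.46-fold lower in NCI-H358 than in HCC827 (log2 difference -2.16, adjusted p = 6.65e-14). Parental ACVR2B differed little between HCC827 and A549 (-0.01, 95% interval -0.18 to 0.16, adjusted p = 0.937). Mesenchymal ACVR2A was highest in NCI-H358, 1.88-fold above A549 (log2 difference 0.91, adjusted p = 3.12e-07), and mesenchymal A549 and HCC827 overlapped in it (0.07, 95% interval -0.14 to 0.28, adjusted p = 0.559).

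A list of 47 other genes of activin signalling was examined, of which 45 were in the table, GDF1 and TDGF1 not being found by symbol or gene ID. In A549 15 of the 45 rose (16.6% of all genes did) and 6 fell (26.8%). In HCC827 19 rose (20.8%) and 3 fell (25%), and in NCI-H358 20 rose (21.5%) and 6 fell (19.8%). The median log2 fold change of the list was 0.06 for A549, 0.19 for HCC827 and 0.18 for NCI-H358, where that of all genes was -0.02, 0.01 and 0.02. Of 9 target genes of SMAD signalling, 6 rose in A549 (16.6% of all genes did). In HCC827 5 rose (20.8%), and in NCI-H358 5 rose (21.5%) and 2 fell (19.8%). Among them PMEPA1, a SMAD inhibitor induced by TGFβ, rose with log2 fold changes of 1.29 (A549), 4.52 (HCC827) and 2.92 (NCI-H358), with a largest limma adjusted p of 2.18e-08. Through such targets TGFβ and activin signalling cannot be told apart. GSC and MIXL1, other targets of activin and NODAL, did not pass in any line.

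Of 6 other ligand genes, 2 rose in HCC827 (20.8% of all genes did), 3 in NCI-H358 (21.5%) and 2 in A549 (16.6%), where 1 fell (26.8%). GDF11, which signals through the activin type II receptors, rose in all 3 lines, with log2 fold changes of 1.22 for A549 (limma adjusted p = 2.12e-05), 0.47 for HCC827 (0.0364) and 1.19 for NCI-H358 (2.54e-05). INHBE, the βE subunit gene, rose by 2.26 in NCI-H358 (adjusted p = 1.40e-09) and fell by 0.65 in A549 (0.00163), with 0.25 in HCC827 (0.195). Its mean percentile went from 10.3 to 41.4 in NCI-H358 and from 21.0 to 12.1 in A549, so both changes involve low levels. INHBC, the βC subunit gene, rose in NCI-H358 (0.32, adjusted p = 0.0135) and had 0.06 and -0.08 in A549 and HCC827. NODAL rose in HCC827 (0.36, adjusted p = 0.0116), and MSTN, encoding myostatin, in A549 (0.21, adjusted p = 0.0485), from a mean level of 2.29 to 2.50, at the low end of the scale. GDF3 did not pass in any line.

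Of 7 other receptor and coreceptor genes, 4 rose in HCC827 (20.8% of all genes did), 3 in NCI-H358 (21.5%) and 2 in A549 (16.6%), and 1 fell in A549 (26.8%) and 1 in NCI-H358 (19.8%). BMPR2, a type II receptor for bone morphogenetic proteins, rose in all 3 lines, with log2 fold changes of 1.86, 1.38 and 1.34 (largest limma adjusted p = 2.88e-09). ACVR1, a type I receptor mainly used by bone morphogenetic proteins, rose as well, by 0.43, 0.70 and 0.52 (largest adjusted p = 0.000663). TGFBR3 (betaglycan), a coreceptor of inhibin and TGFβ, fell by 3.22 in A549 (adjusted p = 1.95e-11) and rose elsewhere, by 0.93 in HCC827 (6.23e-05) and by 0.53 for NCI-H358 (0.00944). IGSF1 rose in HCC827 (0.37, adjusted p = 0.0214) and fell in NCI-H358 (-0.47, 0.0057). ACVR1C (ALK7), ACVRL1 and CFC1 did not pass in any line.

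Of 10 other binding proteins and inhibitors, 3 rose in HCC827 (20.8% of all genes did), 3 in NCI-H358 (21.5%) and 2 in A549 (16.6%), shares near those of all genes, and 1 fell in each line (25%, 19.8% and 26.8%). FSTL1, a follistatin-like glycoprotein, rose in all 3 lines, with log2 fold changes of 2.30, 1.25 and 0.48 (largest limma adjusted p = 0.00119). In NCI-H358 its levels were low, at mean percentiles 16.9 in parental and 23.0 in mesenchymal cells. LEFTY2, an inhibitor of NODAL, rose by 4.22 (adjusted p = 4.02e-15) in HCC827 and by 1.16 (7.45e-08) in NCI-H358, and its near-identical copy LEFTY1 by 1.09 and 1.38, while both had 0.00 to -0.01 in A549. Signal shared between LEFTY1 and LEFTY2 was not separated. BAMBI, a decoy receptor, rose in A549 (1.21, limma adjusted p = 0.000354) and fell in NCI-H358 (-0.69, 0.0234). In NCI-H358 its groups overlapped and its levels were low, at mean percentiles 25.7 in parental and 16.5 in mesenchymal cells. FSTL5 fell in A549 (-0.27, adjusted p = 0.00614) and HCC827 (-0.19, 0.0372), near the low end of the scale. FSTL4, WFIKKN1, WFIKKN2, CER1 and DAND5 did not pass in any line. Among the convertases that can process the precursors of this family, FURIN rose in all 3 lines, by 0.92, 0.52 and 0.50 (largest adjusted p = 0.000343), and PCSK6 fell by 2.93 in HCC827 (adjusted p = 4.33e-10) and by 0.76 in A549 (0.00234). Of 9 signal transducers and their regulators, 2 rose and 2 fell in A549 (16.6% and 26.8% of all genes), 4 rose and 1 fell in HCC827 (20.8% and 25%), and 4 rose and 2 fell in NCI-H358 (21.5% and 19.8%). SMAD7, an inhibitory SMAD, rose in all 3 lines, with log2 fold changes of 0.81, 1.98 and 1.32 (largest limma adjusted p = 6.34e-07). SMAD3 fell by 1.02 in A549 (adjusted p = 2.02e-07) and by 2.25 in NCI-H358 (6.42e-12), and had -0.20 in HCC827 (0.111). None of the 9 passed the paper's cutoff in any line.

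**Figure D4:**
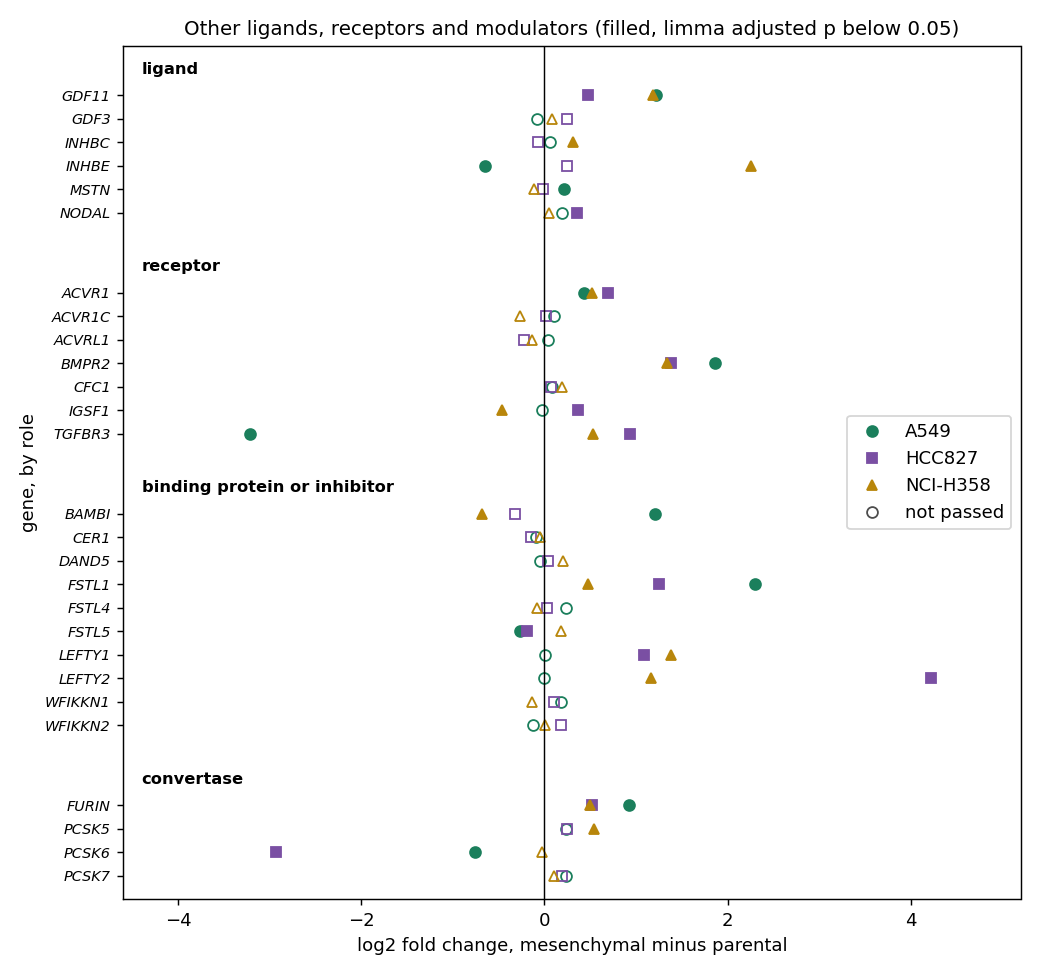
Log2 fold change (x axis, mesenchymal minus parental) of the other ligands, receptors, binding proteins and convertases of the pathway list (y axis, by role) in A549 (circles), HCC827 (squares) and NCI-H358 (triangles). Filled symbols passed limma's adjusted p below 0.05 and open symbols did not. LEFTY2 in HCC827 lies farthest to the right at 4.22 and TGFBR3 in A549 farthest to the left at -3.22.

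Over the 18 arrays the 5 genes whose levels ran most like those of INHBA, by Pearson correlation, were TPST1 (0.971), COL15A1 (0.969), IVNS1ABP (0.966), APBB2 (0.963) and OSBPL8 (0.963). TPST1 encodes a tyrosylprotein sulfotransferase and COL15A1 a collagen chain. The mean level of COL15A1 went from 3.41 to 8.02 (A549), from 2.98 to 7.72 (HCC827) and from 3.998 to 5.07 (NCI-H358). Of the partners FSTL3 was the most like INHBA, with 0.583, the 1102nd highest of all other genes, and INHBB the least, with -0.712. These values rest on 6 groups of 3 arrays each rather than on 18 independent samples, and are given as a description.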

How the data were processed

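The authors hybridized RNA of 18 samples to Affymetrix U133 Plus 2.0 arrays and normalized the data by RMA (background correction, quantile normalization and summary of probes into probe sets). The deposited values are log2 expression levels, with 1 probe set for each of 19849 genes. The rule that chose the probe set and the RMA version are not given in the sources used here. Columns were matched to samples by title, and 0 columns were left unmatched. The SD of log2 differences between the closest pair of arrays in a group was 0.163, and all arrays were kept.

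The 18 arrays entered 1 linear model (limma 3.58.1, run under R 4.3.3) with 6 groups and no covariate, and 12 contrasts were taken. P-values were adjusted by Benjamini-Hochberg over all genes of a contrast. The test is limma's, whose precision rests on 3 arrays per group. Steps were tested on simulated data. The 8 genes and the pathway list were chosen with earlier results of these data known. Named besides the 8 genes are the pathway list's ligands, receptors and binding proteins, its genes past the paper's cutoff in a line (some are counted but not reported here by name), and the 5 genes most like INHBA. FURIN, SMAD3, SMAD7, the targets GSC and MIXL1, and HS3ST3B1, and the 5 search motifs, were chosen after values were seen. Alternatives were other call rules, fits of single lines, a variance trend with intensity, leaving out dim genes, centred arrays, Student's t-test, and arrays left out. Promoter windows came from RefSeq (GRCh38.p14).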

Additional observations from a re-analysis of the deposited data

Results flagged for a closer look

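Tests of the difference of a change between 2 lines passed for 5 partners of INHBA in at least 1 pair of lines (limma, adjusted p below 0.05, one fit of all arrays). Values are differences of log2 fold changes.

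For INHBB the change in HCC827 was 2.27 above that in A549 (adjusted p = 6.71e-07), that in NCI-H358 was -1.85 from A549 (7.36e-06) and -4.11 from HCC827 (7.05e-10). The group means of INHBB spanned 3.45 log2 units in parental and 0.67 in mesenchymal cells. The mesenchymal means lay at percentiles 35.9 to 45.8, and the part of background signal in these differences was not tested. For FST the differences were 0.81 (HCC827 from A549, adjusted p = 0.0117), 2.72 (NCI-H358 from A549, 8.71e-08) and 1.91 (NCI-H358 from HCC827, 6.75e-06). The mesenchymal levels of FST in HCC827 and NCI-H358 lay at percentiles 12.9 and 21.9 of the arrays, and the part of the low end of the scale in these differences was not tested. For FSTL3 they were 0.76 (HCC827 from A549, adjusted p = 0.00976) and 0.97 (NCI-H358 from A549, 0.0017), while 0.21 (NCI-H358 from HCC827, 0.522) did not pass.

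For ACVR1B the change in HCC827 was -1.08 from A549 (adjusted p = 1.01e-07) and that in NCI-H358 was 0.93 from HCC827 (8.42e-07). For ACVR2B the differences were -0.98 (HCC827 from A549, adjusted p = 2.52e-06), -0.63 (NCI-H358 from A549, 0.000282) and 0.35 (NCI-H358 from HCC827, 0.0222).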

How the results depend on the processing

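With a fold change above 2 required as well, the partners that passed numbered 2 in A549 and 2 in NCI-H358, against 4 and 5, and the pathway genes 11 in every line, against 21 (A549), 22 (HCC827) and 26 (NCI-H358). The partners whose change differed between lines were then 2 in each of the 3 pairs, against 5, 4 and 4. With the paper's cutoff the partners were 1, 0 and 1 and the pathway genes 2, 4 and 3 in A549, HCC827 and NCI-H358. Of all genes, 1.9%, 2.95% and 2.17% passed it in these lines. The differences between lines were 0 (HCC827 from A549, where limma's unadjusted p was below 0.05 for 5), 1 and 1. Shares of all genes with a fold above 2, and for differences between lines under either rule, are not given here. Counts without a share describe the rule and are not results about the genes. Tested only among genes above the median level, 13 pathway genes passed in HCC827 and 17 in NCI-H358. Genes of the list below that level were left out and could not be counted, so these numbers are not comparable with those above.

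With each of the 18 arrays left out in turn, the partners that passed numbered 4 to 5 in A549, 5 to 5 in HCC827 and 4 to 6 in NCI-H358. The pathway genes numbered 19 to 21, 18 to 22 and 23 to 27. Differences between lines numbered 5 to 5 (HCC827 from A549), 4 to 4 (NCI-H358 from A549) and 3 to 5 (NCI-H358 from HCC827), and differences of level between parental or between mesenchymal lines 27 to 30, against 29. The sign turned for ACVR2A in HCC827 (range -0.056 to 0.17), INHA in HCC827 (-0.25 to 0.057) and INHA in NCI-H358 (-0.0069 to 0.15), none of which passed with or without the array. Single calls that changed were those of FST and ACVR2B in NCI-H358 given above, ACVR1B in A549 without mesenchymal replicate 2 (-0.20, adjusted p = 0.0441) and ACVR2A in A549 without HCC827 mesenchymal replicate 3 (0.19, adjusted p = 0.0425) or with each array centred on its median (0.26, adjusted p = 0.0308). By Student's t-test FST in NCI-H358 did not pass after adjustment (adjusted p = 0.0709). Replicate 1 of every parental group carries an array number apart from the rest. Leaving out these 3 arrays let 1 more single call pass and lost 0. INHBB and FSTL3 kept their direction and passed in all 3 lines under every alternative tried except the added fold requirements. The cause of these shifts was not tested. No paired analysis was possible because the labels number arrays without linking groups.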
